A study of Ovis aries with 6 samples.

Results

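Motile cilia beat by sliding the microtubule doublets of their core, the axoneme, past one another. Dynein arms on each doublet make the force, radial spokes and the central apparatus pass signals that set the beat, the nexin-dynein regulatory complex links neighbouring doublets, and microtubule inner proteins brace each doublet from within. The choroid plexus, the epithelium that secretes cerebrospinal fluid into the brain ventricles, carries tufts of cilia on its apical face, and genes for axonemal parts are expressed there and in the ependyma that lines the ventricles.

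The genes described here were chosen by name and level. They are the rows of the count table whose symbol is DNAH, DNAI, DNAAF, CFAP, RSPH, TEKT, DRC or ODAD followed by digits, with or without 1 trailing letter, and whose mean over the 6 pools was at least 0.5 CPM (a counts-per-million level, from total counts). Of 33609 genes listed, 64 fit the symbols and 60 of them the level. The names fix the membership, so the axoneme is covered only as far as the deposited symbols go. No symbol of the ODAD prefix was among the 60, and 27 further rows of the same families are listed under an older symbol (CCDC114, for example, is ODAD1 in the RefSeq table), which are described separately below.

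RNA came from the choroid plexus of ewes in 3 groups, each sequenced as 2 pools of 3 to 4 animals mixed in equal amounts. THX ewes were thyroidectomised and in long days. Long ewes were in long days with the treatment given as control, and Short ewes were likewise control animals, in short days. The design text gives 24 ewes, with 8 per group but 7 in the THX group, and the labels used here state no age, breed or length of exposure. The THX and Long groups differ in the thyroidectomy alone as labelled, Long and Short in day length, and THX and Short in both, so a difference between THX and Short cannot be ascribed to either. All 3 comparisons share pools with one another.

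The pools held between 48282883 and 82100653 counts. Listed markers of the choroid plexus epithelium summed to 134800 and 156900 CPM in THX, 123900 and 125600 CPM in Long, and 104400 and 109200 CPM in Short. Most of each sum was TTR, the transthyretin gene, at 118900 and 140700 CPM in THX, 107600 and 109200 CPM in Long, and 86400 and 92710 CPM in Short. The listed markers KCNE2, SLC16A8 and SLC5A11 were at or near 0, with at least 1 pool at 0 each. CPM values in the text use TMM-scaled totals, and a log2 difference is that of the fitted means of the first-named group over the second. A gene is said to have risen or fallen where the quasi-likelihood F test of edgeR gave an adjusted p under 0.05 over all 18019 tested genes. Each group has 2 pools, so a p-value sets a difference between groups against the spread between pools, estimated over all 3 groups. Each pool mixes 3 to 4 ewes, so that spread is not the spread between animals. Because the tissue was sequenced in bulk, fewer ciliated cells and less RNA per cell cannot be told apart in any of these values. CPM is not per length, and no transcript lengths were used, so levels are compared between pools and not between genes.

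As a group the axoneme genes were at nearly the same level in all 6 pools. Their summed level was 3264 and 3440 CPM in THX, 3097 and 3100 CPM in Long, and 3230 and 3042 CPM in Short. The mean level of a gene ran from 0.726 to 324.2 CPM with a median of 32.1 CPM, and 47 of the 60 were at 10 CPM or more. The highest pool exceeded the lowest by a median of 1.36-fold, which was also the median of the 15942 tested genes at 0.5 CPM or more. In 43 of the 60 (71.7%) the highest pool was less than 1.5-fold above the lowest, against 64.8% of those genes. A range of 2-fold or more was seen in RSPH1 and CFAP299 alone, 3.33% of the group, against 13.5% of those genes.

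**Figure D1:**
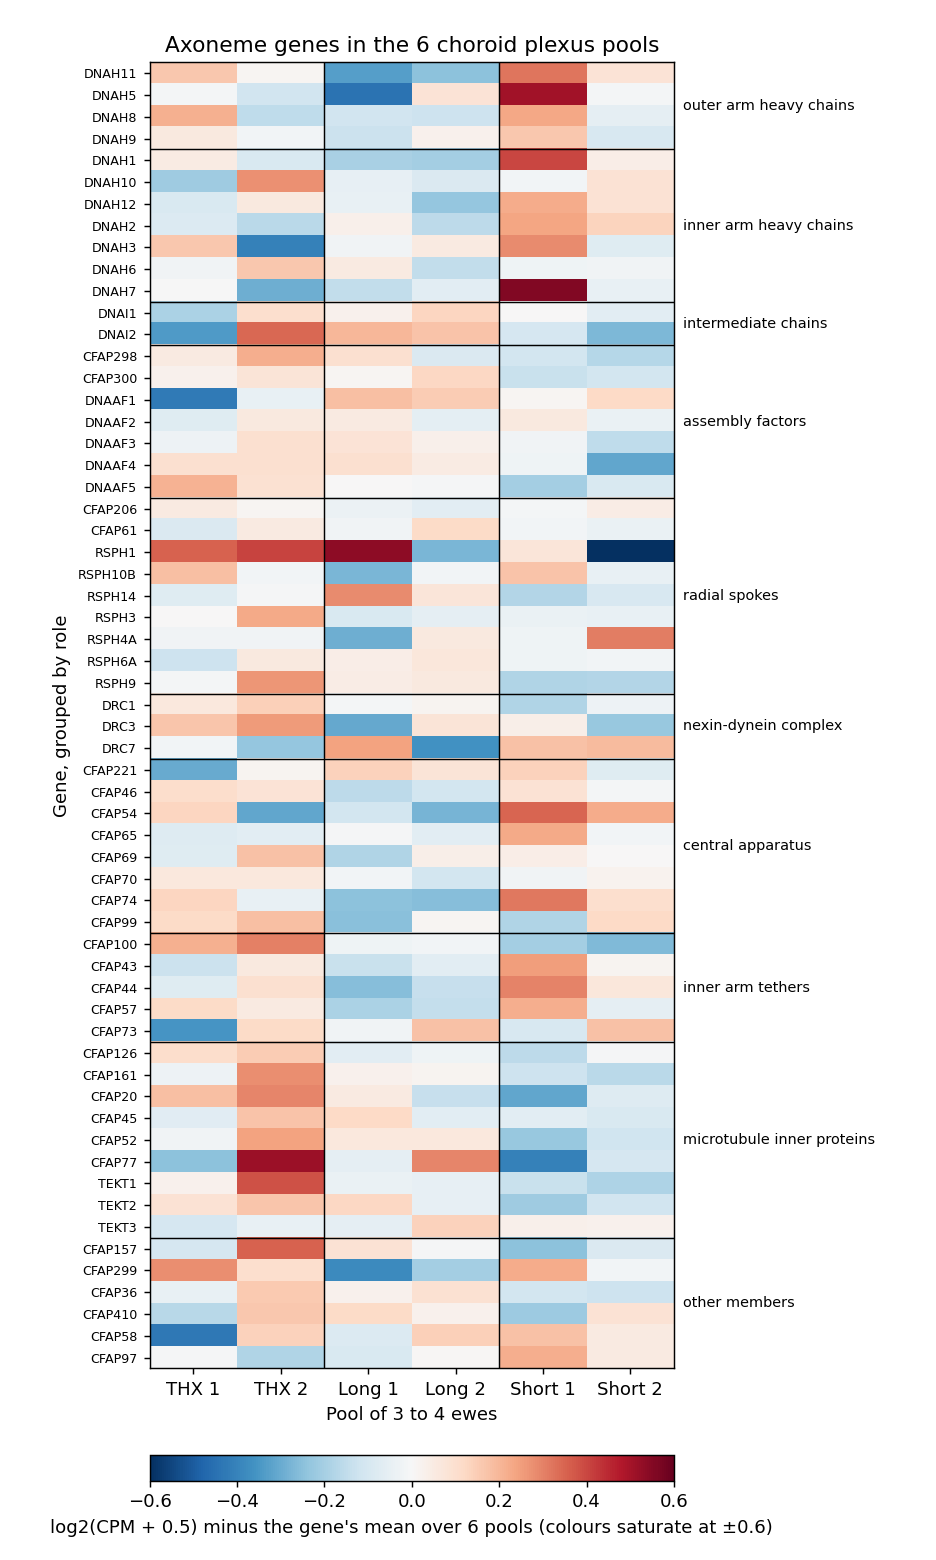
Level of each of the 60 axoneme genes (rows, grouped by role) in each of the 6 pools (columns), as log2(CPM + 0.5) minus the gene's mean over the pools, red for above and blue for below that mean. Dynein heavy chains are reddest in Short pool 1, which is their highest pool in 9 of 11, and most microtubule inner proteins in THX pool 2. Over all tested genes these pools are the highest in 26.4% and 24.5%. No block of rows separates the groups in the same way throughout.

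All 60 genes passed the filter on low counts and were tested. With thyroidectomy in long days, no axoneme gene passed the test. Of the 60, 40 had a log2 difference above 0 and 20 below in THX against Long, with a median of 0.088, while the median of all tested genes was 0.001. The called count was 0 of 60 in edgeR, where 0.283% of all tested genes were called, and the lowest adjusted p was 0.264, of CFAP100. At an unadjusted p under 0.05 there were 6, all higher in THX, beside 9.08% of all tested genes in either direction. The limma-voom fit called 0 as well, beside 0.25% of all tested genes. DESeq2 called 1, CFAP100, beside 2.5% of all tested genes. Both THX pools lay above both Long pools in 19 genes (31.7%) and below them in 3 (5.0%), where the shares over all tested genes were 18.5% higher and 18.7% lower. The shift rested in part on 1 pool, since leaving out THX pool 2 gave a median of 0.04 and leaving out THX pool 1 one of 0.125.

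With day length, in Long against Short, no axoneme gene passed the test either, nor did any other tested gene. In edgeR 0 of 60 and 0.0% of all tested genes were called, and the lowest adjusted p was 0.342. Of the 60, 29 had a log2 difference above 0 and 31 below, with a median of -0.012 beside -0.003 over all tested genes. An unadjusted p under 0.05 was found for 10, of which CFAP100, CFAP300 and RSPH14 were higher in Long and CFAP44, CFAP46, CFAP54, CFAP74, DNAH1, DNAH11 and DNAH12 lower. They make up 16.7% of the group, beside 13.8% of all tested genes. The limma-voom fit called 0, beside 0.0% of all tested genes. DESeq2 called 2, CFAP74 and DNAH11, both lower in Long, beside 0.927% of all tested genes. Both Long pools were above both Short pools in 21 genes (35.0%, with 26.7% over all tested genes) and below them in 17 (28.3%, with 26.8%).

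In THX against Short, which differ in both treatment and day length, 1 of 60 rose, CFAP100, and none fell, where 0.916% of all tested genes were called by edgeR in either direction. The limma-voom fit called the same gene, beside 0.977% of all tested genes. DESeq2 called 4, CFAP100, CFAP20, DNAAF5 and TEKT1, all higher in THX, beside 9.65% of all tested genes in either direction. Above 0 were 34 log2 differences and below it 26, with a median of 0.027 beside -0.008 over all tested genes. That median turned to -0.072 where total counts replaced TMM scaling, with the median of all tested genes then at -0.107. At an unadjusted p under 0.05 there were 11 genes higher and 3 lower in THX, together 23.3% of the group beside 22.6% of all tested genes. The THX pools were both above the Short pools in 20 genes (33.3%, with 25.7% over all tested genes) and both below in 8 (13.3%, with 26.7%).

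The intervals of the differences were narrow for most of these genes. The 95% interval of the log2 difference lay within 1 of 0 in either direction for 58 of 60 in THX against Long, the exceptions being CFAP299 and RSPH1. It did so for 57 in Long against Short, without CFAP299, CFAP77 and RSPH1, and for 57 in THX against Short, without CFAP77, DNAH3 and RSPH1. Over all tested genes the same held for 76.0%, 76.1% and 72.8% in these comparisons. All tested genes include genes below the level limit of 0.5 CPM, so these shares are not at matched levels. The median of the intervals' half-widths was 0.264 in THX against Long. Single pools of the same group differed by a median of 0.168 on the log2 scale in THX, 0.0925 in Long and 0.134 in Short. The fitted group means differed by a median of 0.125 in THX against Long, 0.169 in Long against Short and 0.179 in THX against Short. Over all tested genes these medians were 0.174, 0.0955 and 0.139 between pools and 0.122, 0.172 and 0.212 between groups. Means of 2 pools vary less than single pools, so the 2 kinds of difference are not on the same footing.

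**Figure D2:**
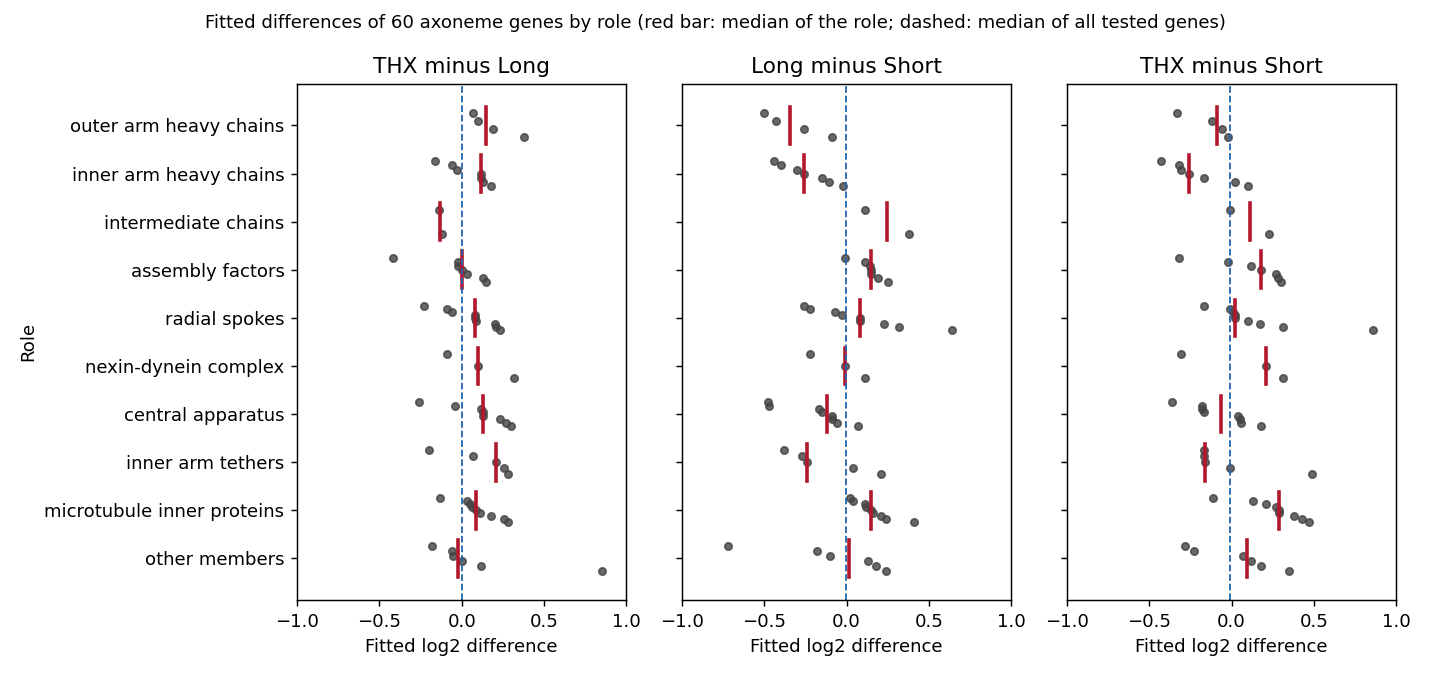
Fitted log2 difference of each of the 60 axoneme genes (points) by role in THX minus Long, Long minus Short and THX minus Short, with the median of each role (red bars) and of all tested genes (dashed line). In Long minus Short the heavy chains lie below 0, from -0.50 to -0.02, and the microtubule inner proteins above it.

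CFAP100, in the alga Chlamydomonas part of a complex that modifies the inner dynein arms, was the axoneme gene at the highest CPM. It was at 372.2 and 395.3 CPM in THX, 314.8 and 317.2 CPM in Long, and 278.4 and 267.2 CPM in Short. The 3 groups did not overlap, THX being the highest and Short the lowest. CFAP100 rose 1.41-fold in THX against Short, a log2 difference of 0.49 ± 0.0724 (SE; adjusted p = 0.039, edgeR). The log2 difference of 0.28 in THX against Long did not pass the threshold (adjusted p = 0.264, edgeR), nor did that of 0.21 in Long against Short (adjusted p = 0.342, edgeR).

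The call of CFAP100 in THX against Short did not hold under each choice. The log2 difference ran from 0.39 to 0.54 over 15 settings, and 9 of them called the gene. Adjusted p was 0.124 with the 4 THX and Short pools alone, 0.132 without Long pool 1, 0.127 without Long pool 2, 0.19 without Short pool 1, 0.126 without Short pool 2 and 0.0852 without THX pool 2 (edgeR). Leaving out THX pool 1 kept the call, at an adjusted p of 0.0362 (edgeR). Each fit that lost the call also called a smaller share of all tested genes in THX against Short. That share was 0.0612% with the 4 THX and Short pools alone, against 0.916% with all pools. The loss of the call was thus not particular to CFAP100. CFAP100 is among 29 of the 60 whose span from start to end overlaps that of another annotated gene in the RefSeq table. Such spans include introns and were compared without regard to strand, so shared exons were not shown. Since the labels and notes used here do not state the strand setting of the counting, reads of such neighbours could be included.

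The other genes of the inner arm tether and modifier group were not called. CFAP73, the partner of CFAP100 in that algal complex, was at 3.52 and 5.06 CPM in THX, 4.57 and 5.30 CPM in Long, and 4.31 and 5.30 CPM in Short. Its groups overlapped in every comparison, so it did not share the order of CFAP100. CFAP44, a protein of the tether that holds a dynein motor domain to the doublet, was at 70.1 and 78.8 CPM in THX, 61.7 and 67.0 CPM in Long, and 90.6 and 77.3 CPM in Short. Both Long pools were the lowest of the 6, with a log2 difference of -0.38 in Long against Short (adjusted p = 0.342, edgeR). The median of the 5 genes was 0.21 in THX against Long, -0.24 in Long against Short and -0.158 in THX against Short. Leaving out 1 pool moved it to between 0.126 and 0.271, between -0.352 and -0.117, and between -0.253 and -0.033 in these comparisons.

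**Figure D3:**
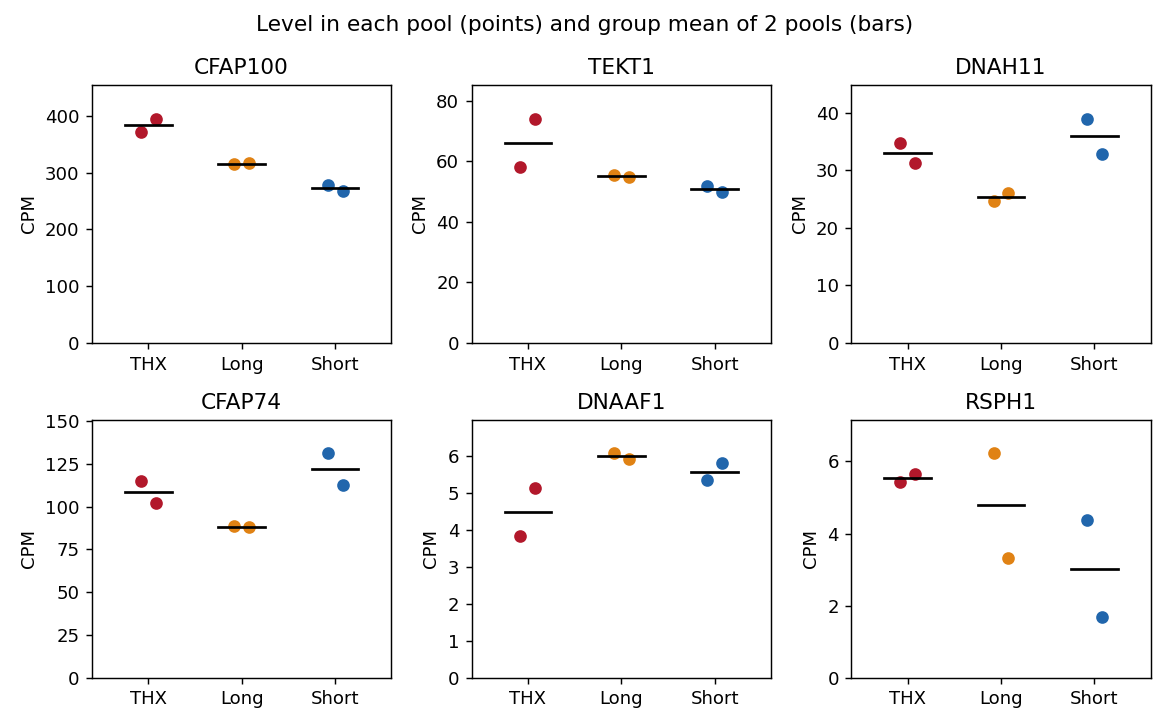
CPM in each pool (points) and the mean of the 2 pools of each group (bars) for CFAP100, TEKT1, DNAH11, CFAP74, DNAAF1 and RSPH1, THX at the left, Long in the middle and Short at the right, each on its own axis from 0. CFAP100 steps down over the 3 groups, DNAH11 and CFAP74 are lowest in Long, DNAAF1 is lowest in THX, and RSPH1 differs most between pools of 1 group.

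The dynein heavy chains are the motors themselves, very large proteins that hydrolyse ATP. None was called in any comparison. All 11 had a log2 difference below 0 in Long against Short, with a median of -0.257, and in 7 (63.6%) the Long pools lay below both Short pools, beside 26.8% of all tested genes. In THX against Long 8 were above 0 and 3 below, with a median of 0.119, and in THX against Short 2 were above and 9 below, with a median of -0.174. One pool weighed on these values, Short pool 1, which was the highest of the 6 in 9 of the 11 heavy chains. Over all tested genes that pool was the highest in 26.4%. Without it the median was -0.144 in Long against Short and -0.039 in THX against Short, and without Short pool 2 it was -0.364 in Long against Short. In THX against Long the median was 0.042 without THX pool 1.

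DNAH5 is a heavy chain of the outer arm and is among the genes most often mutated in primary ciliary dyskinesia. It was at 135.9 and 126.7 CPM in THX, 100.8 and 145.1 CPM in Long, and 194.5 and 135.8 CPM in Short. The groups overlapped in every comparison, and the Short pools differed from each other more than the group means of THX and Long did. Log2 differences were 0.10 in THX against Long, -0.43 in Long against Short and -0.33 in THX against Short, the lowest adjusted p being 0.374 (edgeR).

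DNAH11, another outer arm heavy chain, used in the proximal part of cilia in airways, had the lowest p of the heavy chains in THX against Long and in Long against Short. It was at 34.7 and 31.3 CPM in THX, 24.6 and 26.1 CPM in Long, and 39.0 and 32.9 CPM in Short. Both Long pools lay below all others. The log2 difference was 0.38 in THX against Long (adjusted p = 0.326, edgeR) and -0.50 in Long against Short (adjusted p = 0.342, edgeR). DNAH11 overlaps CDCA7L in the RefSeq table.

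DNAH9, the outer arm chain of the distal cilium, varied little. It was at 77.0 and 73.0 CPM in THX, 67.5 and 75.3 CPM in Long, and 82.8 and 69.2 CPM in Short. DNAH8, an outer arm chain better known from sperm, was near the lower limit at 3.13 and 2.32 CPM in THX, 2.39 and 2.37 CPM in Long, and 3.17 and 2.51 CPM in Short. For neither gene did the log2 difference exceed 0.26 in size in any comparison.

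Of the 7 inner arm heavy chains, DNAH7 was at 39.1 and 31.9 CPM in THX, 35.2 and 37.4 CPM in Long, and 57.7 and 37.9 CPM in Short. Its Short pool 2 stood close to Long pool 2, and Short pool 1 alone stood apart. DNAH1 was at 22.0 and 19.9 CPM in THX, 18.5 and 18.4 CPM in Long, and 28.2 and 21.9 CPM in Short, a log2 difference of -0.44 in Long against Short (adjusted p = 0.342, edgeR). DNAH2, a chain of the double-headed inner arm, was at 16.4 and 15.5 CPM in THX, 17.8 and 15.5 CPM in Long, and 20.6 and 19.1 CPM in Short, so that both Short pools were above all others (log2 difference -0.32 in THX against Short, adjusted p = 0.166, edgeR). DNAH6 differed less between groups, at 67.7 and 76.7 CPM in THX, 71.3 and 61.8 CPM in Long, and 67.3 and 67.5 CPM in Short. DNAH3 was at 1.44 and 0.813 CPM in THX, 1.21 and 1.31 CPM in Long, and 1.62 and 1.16 CPM in Short, where the pools of 1 group differed as much as the groups.

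Genes of other very large proteins and of small ones moved over the same pools. For 45 tested genes of very large proteins outside the cilium, a list put together after the values of the heavy chains had been seen, 44 log2 differences in Long against Short were below 0, with a median of -0.335, and 41 were below 0 in THX against Short, with a median of -0.285. Short pool 1 was the highest pool of 33 of them, beside 26.4% of all tested genes. For the 74 genes of cytosolic ribosomal proteins the order was the opposite. In Long against Short 73 were above 0, with a median of 0.348, and in THX against Short 74, with a median of 0.477. Their lowest pool was Short pool 1 in 70 genes and their highest THX pool 2 in 70, beside 24.1% and 24.5% of all tested genes. Relative to each gene's mean, the median heavy chain stood 0.24 higher in Short pool 1 and the median very large protein gene 0.30 higher, while the median ribosomal protein gene stood at -0.36. The part of this pool-wide pattern in the heavy chain values was not tested.

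**Figure D4:**
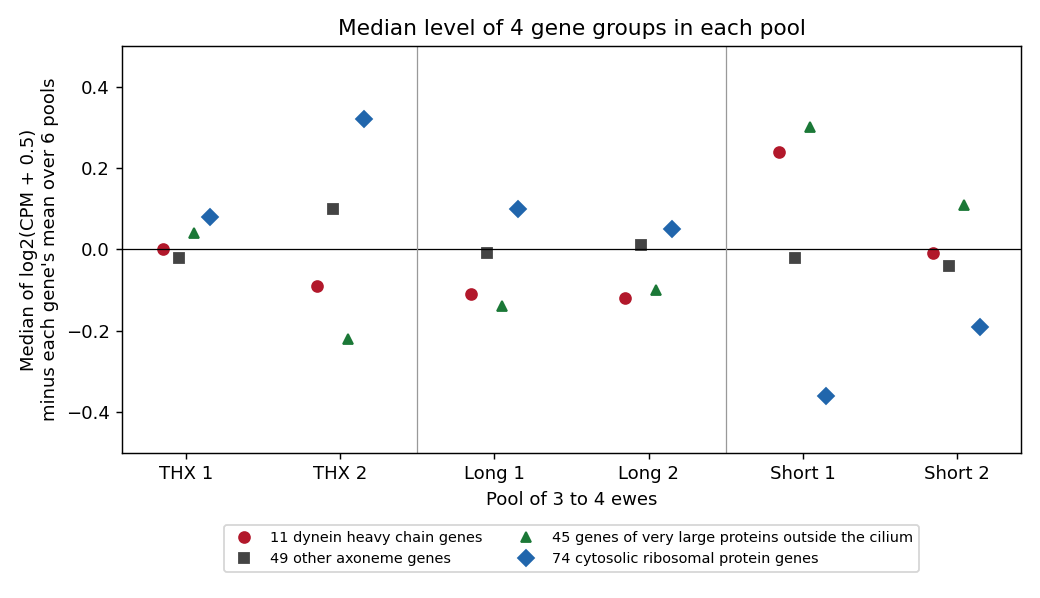
Median of log2(CPM + 0.5) minus each gene's mean over 6 pools, in each pool, for 11 dynein heavy chain genes, the 49 other axoneme genes, 45 genes of very large proteins outside the cilium and 74 cytosolic ribosomal protein genes. In Short pool 1 the heavy chains stand at 0.24 and the very large protein genes at 0.30, while the ribosomal protein genes stand at -0.36; the 49 other axoneme genes stay between -0.04 and 0.10.

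The 49 axoneme genes other than heavy chains had medians of 0.083 in THX against Long, 0.076 in Long against Short and 0.097 in THX against Short. The last turned to -0.003 with total counts in place of TMM scaling, where the median of all tested genes was -0.107. THX pool 2 was their highest pool in 24 of 49. Over all tested genes that pool was the highest in 24.5%. Leaving out that pool gave a median of 0.014 in THX against Long, and leaving out THX pool 1 gave 0.127.

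The intermediate chains of the outer arm anchor its motors. DNAI2 was at 16.9 and 27.5 CPM in THX, 24.8 and 24.3 CPM in Long, and 20.0 and 17.8 CPM in Short. The THX pools enclosed all the others, and Long stood above Short with a log2 difference of 0.38 (adjusted p = 0.437, edgeR). DNAI1 was at 17.5 and 21.5 CPM in THX, 20.4 and 22.0 CPM in Long, and 20.1 and 19.1 CPM in Short, again with THX pool 1 as the lowest. Neither chain shared the sign of the heavy chains in Long against Short.

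Dynein arms are put together in the cytoplasm by assembly factors before they reach the cilium, and 7 of these genes were among the 60. DNAAF3 was at 263.1 and 287.6 CPM in THX, 284.4 and 274.6 CPM in Long, and 265.2 and 241.8 CPM in Short. DNAAF1, a leucine-rich repeat protein, was at 3.82 and 5.12 CPM in THX, 6.07 and 5.93 CPM in Long, and 5.35 and 5.80 CPM in Short. Both THX pools of DNAAF1 were below all others, and its log2 difference of -0.42 in THX against Long was the lowest of the 60 there (adjusted p = 0.583, edgeR). CFAP298 was at 124.2 and 139.3 CPM in THX, 128.2 and 112.9 CPM in Long, and 111.1 and 106.2 CPM in Short, with both Short pools the lowest. DNAAF4 was at 7.32 and 7.34 CPM in THX, 7.31 and 7.07 CPM in Long, and 6.69 and 5.40 CPM in Short, and DNAAF5 at 103.8 and 95.5 CPM in THX, 89.8 and 89.3 CPM in Long, and 77.7 and 84.1 CPM in Short. DNAAF5 was ordered as CFAP100 was, with no overlap between the groups and a log2 difference of 0.30 in THX against Short (adjusted p = 0.115, edgeR). The 7 factors had a median of -0.004 in THX against Long, 0.148 in Long against Short and 0.175 in THX against Short, and none was called.

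The microtubule inner proteins and tektins, which line the inside of the doublet, stood mostly above 0. Of the 9 genes 8 were above 0 in THX against Long, with a median of 0.087, 9 in Long against Short, with a median of 0.154, and 8 in THX against Short, with a median of 0.292. None was called, and 6 of them had an unadjusted p under 0.05 in THX against Short, all higher in THX, beside 22.6% of all tested genes in either direction. THX pool 2 again carried part of this: the median in THX against Long was -0.051 without it and 0.199 without THX pool 1, and in THX against Short 0.161 without it and 0.421 without THX pool 1.

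TEKT1, a tektin filament protein, was at 57.9 and 74.1 CPM in THX, 55.3 and 54.9 CPM in Long, and 51.8 and 49.9 CPM in Short. Its groups did not overlap and followed the order of CFAP100, with a log2 difference of 0.38 in THX against Short (adjusted p = 0.143, edgeR). CFAP20, a protein of the doublet's inner junction, was at 75.1 and 81.2 CPM in THX, 68.7 and 60.2 CPM in Long, and 53.2 and 62.6 CPM in Short. Both THX pools of CFAP20 were above all others, with a log2 difference of 0.43 in THX against Short (adjusted p = 0.105, edgeR).

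CFAP45, which lies in the lumen of the doublet's B tubule, was at 125.5 and 148.6 CPM in THX, 143.0 and 126.0 CPM in Long, and 126.0 and 123.7 CPM in Short. CFAP161 was at 84.1 and 104.4 CPM in THX, 87.5 and 87.0 CPM in Long, and 78.8 and 77.0 CPM in Short. In both genes THX pool 2 was the highest of all pools and THX pool 1 lay within the range of the others. CFAP77 was at 4.65 and 8.19 CPM in THX, 5.37 and 6.97 CPM in Long, and 4.10 and 5.18 CPM in Short. Its THX pools spanned nearly the whole range, and the log2 difference of 0.47 in THX against Short had an adjusted p of 0.368 (edgeR). In TEKT3, the remaining tektin of low level, the values were 5.81 and 6.07 CPM in THX, 6.03 and 6.96 CPM in Long, and 6.42 and 6.39 CPM in Short, and it was the exception below 0 in both comparisons with THX.

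Radial spokes reach from the doublets to the central pair. RSPH1, a protein of the spoke head, was the most variable axoneme gene, at 5.44 and 5.65 CPM in THX, 6.23 and 3.33 CPM in Long, and 4.38 and 1.67 CPM in Short. The highest pool was 3.72-fold above the lowest, and pools of 1 group differed as much as the groups did in Long and in Short. Its log2 difference of 0.86 in THX against Short was the highest of the 60, with an interval that took in 0 (adjusted p = 0.306, edgeR). It was 0.34 without Short pool 2 and 1.73 without Short pool 1.

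RSPH9, also of the spoke head, was at 51.6 and 62.6 CPM in THX, 53.8 and 54.3 CPM in Long, and 45.9 and 46.1 CPM in Short. Both Short pools were the lowest. RSPH14 was at 29.6 and 31.0 CPM in THX, 38.1 and 32.8 CPM in Long, and 27.5 and 29.1 CPM in Short, so that Long was above both other groups, with a log2 difference of -0.23 in THX against Long (adjusted p = 0.571, edgeR) and 0.32 in Long against Short (adjusted p = 0.342, edgeR). CFAP206, a protein at the base of a spoke in ciliates, was among the most even genes, at 42.4 and 41.2 CPM in THX, 39.9 and 39.1 CPM in Long, and 40.6 and 42.2 CPM in Short. Over the 9 spoke genes the median was 0.083 in THX against Long, 0.076 in Long against Short and 0.016 in THX against Short. The last turned to -0.08 with total counts, beside -0.107 over all tested genes. Without Long pool 2 the median in Long against Short was 0.011, and without THX pool 1 that in THX against Short was 0.086.

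The nexin-dynein regulatory complex was represented by 3 genes. DRC1, a scaffold of the complex, was at 181.7 and 192.1 CPM in THX, 172.3 and 176.0 CPM in Long, and 153.6 and 170.2 CPM in Short. Its groups did not overlap, with a log2 difference of 0.21 in THX against Short (adjusted p = 0.19, edgeR). DRC3 was at 36.9 and 39.2 CPM in THX, 26.4 and 34.6 CPM in Long, and 33.5 and 27.9 CPM in Short, both THX pools being above the others. DRC7 was at 31.4 and 27.0 CPM in THX, 37.7 and 24.6 CPM in Long, and 35.9 and 36.4 CPM in Short, where the Long pools were the highest and the lowest of all. The 3 subunits thus had no order of the groups in common.

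The central apparatus is the pair of single microtubules in the axoneme's middle with its projections. CFAP46, CFAP54, CFAP74 and CFAP221 belong to 1 projection of it in Chlamydomonas. CFAP74 was at 115.0 and 101.8 CPM in THX, 88.6 and 87.9 CPM in Long, and 131.1 and 112.6 CPM in Short, with a log2 difference of 0.30 in THX against Long (adjusted p = 0.43, edgeR) and -0.47 in Long against Short (adjusted p = 0.342, edgeR). CFAP46 was at 211.9 and 208.1 CPM in THX, 176.6 and 182.0 CPM in Long, and 209.2 and 195.4 CPM in Short. In both genes the Long pools were the lowest of the 6.

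CFAP54 was at 96.8 and 71.3 CPM in THX, 82.1 and 72.9 CPM in Long, and 112.8 and 103.3 CPM in Short, with both Short pools above all others and log2 differences of -0.48 in Long against Short and -0.36 in THX against Short. CFAP221 took another order, at 6.99 and 8.83 CPM in THX, 9.67 and 9.24 CPM in Long, and 9.65 and 8.29 CPM in Short. The 8 central apparatus genes had a median of 0.126 in THX against Long, -0.118 in Long against Short and -0.066 in THX against Short, the last being 0.011 without THX pool 1, and none was called.

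For 6 of the 60 no role was assigned. CFAP36 was at 82.2 and 94.6 CPM in THX, 86.2 and 90.4 CPM in Long, and 78.5 and 77.7 CPM in Short, and CFAP97 at 52.1 and 46.2 CPM in THX, 49.1 and 52.7 CPM in Long, and 61.0 and 54.5 CPM in Short. Their order in Short was opposite, CFAP36 being lowest and CFAP97 highest in the Short pools. CFAP58 was at 2.02 and 3.24 CPM in THX, 2.71 and 3.26 CPM in Long, and 3.35 and 3.03 CPM in Short. CFAP299 was at 0.968 and 0.798 CPM in THX, 0.428 and 0.552 CPM in Long, and 0.911 and 0.697 CPM in Short, and its log2 difference of 0.85 in THX against Long was the highest of the 60 (adjusted p = 0.514, edgeR).

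CFAP299, DNAH3 and DNAH8 are also the genes just inside the level limit, with means of 0.726, 1.26 and 2.65 CPM from total counts. Just outside it were DNAH17, with 12 counts over all 6 pools, and TEKT4 and TEKT5 with 5 counts each, and DNAH14 had 0. DNAH17, TEKT4 and TEKT5 are known from sperm flagella. The gap between both sides of the limit was wide, so that 60 genes were also taken at a limit of 0.1 CPM and 58 at 2 CPM.

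The 27 rows that carry an older symbol of the same families were all tested and none was called in any comparison. They include CCDC114, ARMC4, CCDC151 and TTC25, which dock the outer dynein arm, WDR63 and WDR78, which are intermediate chains of inner arms, and the assembly factors LRRC6 and PIH1D3. Their summed level was 588.1 and 681.8 CPM in THX, 598.7 and 612.4 CPM in Long, and 598.3 and 586.0 CPM in Short. The median log2 difference was 0.037 in THX against Long, 0.118 in Long against Short and 0.102 in THX against Short. Without THX pool 2 the first was -0.079 and the third -0.094. With total counts the third was -0.001, beside -0.107 over all tested genes.

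Other genes of motile cilia, from a list of 124 that shares none with the 60, had small medians as well. This list is not separate from the 27 rows of older symbols. CCDC114, ARMC4, CCDC151, TTC25, WDR63, WDR78, LRRC6 and PIH1D3, among others, are in both. Of 109 tested, 81 were above 0 in THX against Long, with a median of 0.098, which was near 0 without THX pool 2. In Long against Short 59 were above 0, with a median of 0.016, and in THX against Short 76, with a median of 0.093. The last turned to -0.002 with total counts, beside -0.107 over all tested genes. In THX against Short 1 of the 109 was called, beside 0.916% of all tested genes, a share near that background. This gene, SPATA18, which is linked to mitochondrial quality control and sperm, fell to 0.951 and 1.45 CPM in THX, against 3.74 and 3.57 CPM in Short (log2 difference -1.60, adjusted p = 0.045, edgeR), and was at 2.82 and 2.83 CPM in Long. TTLL6, an enzyme that adds glutamates to axonemal tubulin, was at 1.41 and 1.31 CPM in THX, 4.603 and 3.643 CPM in Long, and 5.59 and 3.37 CPM in Short. Both THX pools were below all others, with log2 differences of -1.60 in THX against Long (adjusted p = 0.127, edgeR) and -1.73 in THX against Short (adjusted p = 0.0552, edgeR).

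Regulators that switch on the multiciliated programme did not pass the test in any comparison, with 21 tested. FOXJ1, the transcription factor that drives many axonemal genes, was at 432.5 and 496.5 CPM in THX, 393.3 and 323.4 CPM in Long, and 330.9 and 330.8 CPM in Short. Both THX pools were above all others, with a log2 difference of 0.37 in THX against Long (adjusted p = 0.367, edgeR) and 0.49 in THX against Short (adjusted p = 0.0935, edgeR). FOXN4 was at 2.57 and 3.71 CPM in THX, 6.96 and 6.99 CPM in Long, and 4.57 and 5.74 CPM in Short, below the others in both THX pools (log2 difference -1.15 in THX against Long, adjusted p = 0.162, edgeR). GMNC, an early regulator of the multiciliated fate, was at 16.6 and 11.2 CPM in THX, 13.3 and 11.6 CPM in Long, and 24.2 and 18.7 CPM in Short. CCNO, which acts in the growth of the many centrioles, was at 136.8 and 131.9 CPM in THX, 117.5 and 148.6 CPM in Long, and 97.3 and 78.5 CPM in Short. In Short GMNC was thus the highest and CCNO the lowest, and the regulators had no direction in common.

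Intraflagellar transport carries axonemal parts along the cilium, and none of its 41 tested genes was called in any comparison. Their median was 0.076 in THX against Long, -0.004 in Long against Short and 0.076 in THX against Short. The last was -0.024 with total counts, beside -0.107 over all tested genes. KIF17, a kinesin motor, was at 25.3 and 24.5 CPM in THX, 16.3 and 17.1 CPM in Long, and 16.8 and 14.2 CPM in Short. Both THX pools of KIF17 were above all others, with log2 differences of 0.58 in THX against Long (adjusted p = 0.162, edgeR) and 0.68 in THX against Short (adjusted p = 0.0538, edgeR). IFT140, of the complex for return transport, was at 152.4 and 147.5 CPM in THX, 127.5 and 128.9 CPM in Long, and 126.0 and 124.4 CPM in Short (log2 difference 0.23 in THX against Long, adjusted p = 0.341, edgeR).

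Ependymal cells are another ciliated cell type that a choroid plexus sample may hold. The summed level of 16 listed ependymal markers was 3937 and 4058 CPM in THX, 3620 and 3693 CPM in Long, and 3096 and 3356 CPM in Short. None of the 13 tested was called, and their medians were 0.125 in THX against Long, 0.178 in Long against Short and 0.366 in THX against Short. Without Short pool 1 they were 0.071 in Long against Short and 0.173 in THX against Short, and without THX pool 2 the median in THX against Short was 0.138. PLTP, a lipid transfer protein gene, made up most of the sum, at 2452 and 2615 CPM in THX, 2142 and 2222 CPM in Long, and 1868 and 1912 CPM in Short. The listed markers TMEM212, SNTN and AQP4 were near 0, with means over the 6 pools of 0.026, 0.014 and 0.126 CPM, and were not tested. CD24 and CCDC33 were low, with means of 0.53 and 0.997 CPM. The sum is thus no measure of how many ependymal cells the pools held. The choroid plexus epithelium list did not move as 1 block. Of 27 tested, 2 changed in THX against Long, HTR2C and CAB39L, which both fell, beside 0.283% of all tested genes. The median of the list was -0.105, or 0.001 without THX pool 2. In THX against Short 4 changed, IGFBP2, which rose, and HTR2C, CAB39L and KL, which fell, beside 0.916% of all tested genes. The list's median there was -0.236, or -0.107 without THX pool 2 and -0.145 without Short pool 1. Summed fibroblast and leptomeningeal markers stood at 630.6 and 873.1 CPM in THX, 1045 and 953.4 CPM in Long, and 862.2 and 1135 CPM in Short. Of the 10 tested, LUM alone was called, lower in THX against Long (adjusted p = 0.0314, edgeR) and in THX against Short (adjusted p = 0.0351, edgeR). Over all tested genes 0.283% and 0.916% were called in these comparisons. The medians of the 10 were -0.501 in THX against Long and -0.457 in THX against Short. Without THX pool 1 these were -0.338 and -0.267. Without Short pool 2 the median in THX against Short was -0.274. Oligodendrocyte markers summed to 109.9 and 109.0 CPM in THX, 111.4 and 124.4 CPM in Long, and 120.5 and 121.3 CPM in Short. The part of these cell types in the values of the axoneme genes was not tested.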

How the data were processed

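PolyA RNA of ewe choroid plexus was sequenced in 6 pools from libraries of a stranded mRNA kit, per the labels' protocols. The authors deposited raw counts per gene, whole numbers without normalisation. The submitters' processing notes name TopHat2 2.1.1, featureCounts 2.0.0, SAMtools 1.9, bcl2fastq 2.20, MultiQC 1.9 and FastQC 0.11.8; for the genome build, annotation and strand setting of counting nothing was stated in the labels or notes, and overlapping genes may share reads. Total counts ran from 48282883 to 82100653 per pool.

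Genes were filtered by the expression filter of edgeR 4.0.16 (R 4.3.3), scaled by TMM and fitted with 1 mean per group over all 6 pools, which left 3 residual degrees of freedom plus 3.96 prior ones. Pairs of groups were compared by two-sided quasi-likelihood F tests with Benjamini-Hochberg adjustment over 18019 genes. Intervals are 95% intervals of the fitted difference. Plotted values add a pseudocount of 0.5 CPM. Alternatives were DESeq2 1.42.0, voom of limma 3.58.1, other scalings, filters, level limits and thresholds, the 4 compared pools alone, a block for the pool number, and leaving out each pool. The fit was also run on counts simulated from the means and spreads fitted to these same pools. Such a run checks the code and not whether the model suits these pools. Names were looked up in the RefSeq table of ARS-UI_Ramb_v3.0, where all 60 identifiers matched. Overlaps were taken from the start and end of each gene on its chromosome, without regard to strand or exons. No sequences are shown.

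The members and lists were chosen with earlier results of these data known, and the list of very large proteins after the heavy chain values had been seen. The text names every called member, for each comparison the 5 highest and 5 lowest log2 differences, the highest and lowest levels overall and within each role, 3 genes on each side of the level limit, 1 known gene per prefix, and of other lists some of the genes with the lowest p. CFAP52, CFAP300, DNAAF5, DNAH12 and TEKT3 were named after their values had been seen.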

Additional observations from a re-analysis of the deposited data

How the results depend on the processing

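The counts of called axoneme genes changed with the test. DESeq2 called 1 in THX against Long, 2 in Long against Short and 4 in THX against Short. Over all tested genes DESeq2 called 2.5%, 0.927% and 9.65% in these comparisons. Without a filter on low counts edgeR called 2 in THX against Short, CFAP100 and CFAP20, beside 3.82% of all tested genes. With only the 4 pools compared, 0 were called in THX against Short, beside 0.0612% of all tested genes. Leaving out 1 pool at a time gave 0 to 7 in THX against Short, the 7 arising without THX pool 1, of which CFAP54 was the one lower in THX, and 0 arising without any 1 of the other 5 pools, where a lone pool is assumed to vary like the other groups. With total counts in place of TMM scaling the median log2 difference was 0.04 in THX against Long, -0.062 in Long against Short and -0.072 in THX against Short, while the median of all tested genes was -0.048, -0.053 and -0.107. Leaving out 1 pool, the median ran from 0.04 to 0.125 in THX against Long, from -0.024 to 0.036 in Long against Short, the highest without Long pool 1, and from 0.011 to 0.085 in THX against Short. In THX against Short the share of all tested genes that was called also rose without THX pool 1. It fell without each of the other pools. The cause of these changes was not tested. Differences between pool 1 and pool 2 correlated at 0.067 for THX and Long, -0.0586 for Long and Short and 0.211 for THX and Short. With the pool number as a replicate block 0, 0 and 1 axoneme genes were called in the 3 comparisons. Over all tested genes 0.266%, 0.0% and 2.18% were called with the block, against 0.283%, 0.0% and 0.916% without it. Whether the pool numbers pair the pools was not settled. Of 1788 values of the named axoneme genes under an alternative, 0 called values reversed, 6 lost and 13 gained a call, and 72 changed sign without a call. The level limit taken on TMM-scaled CPM, chosen after seeing the data, gave the same 60 genes. With 2 pools a group, genes at a few CPM such as RSPH1, CFAP299 and DNAH3 had wide intervals.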
